A study of Mus musculus with 8 samples.

Results

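The MHC class I heavy chains described here were 9 mouse genes of the H2 complex on chromosome 17. They comprised 2 classical genes, H2-K1 and H2-D1, and 7 non-classical genes, H2-Q4, H2-Q6, H2-Q7, H2-T10, H2-T22, H2-T23 and H2-M3. Members were found on the arrays by the RefSeq accession that the scanner files give for each probe. Of the 9 genes, 7 had a probe, 8 probes in all, and no probe was matched to H2-Q6 or H2-T22. All 7 were well above background on all 8 arrays and stood among 25404 features tested.

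RNA came from Lgr5-high intestinal stem cells of mice, measured on 8 single-colour Agilent arrays, 4 per group. Mice of both groups were Irf2fl/fl and carried the Lgr5-EGFP-Ires-CreERT2 knock-in, which places a fluorescent reporter and a hormone-inducible Cre under Lgr5. The Irf2AhcKO group also carried Ah-Cre, a recombinase switched on by beta-naphthoflavone, and the Control group was without it per the labels. Cells of both groups were taken 1 month after 5 days of beta-naphthoflavone. The design text speaks of 4 independent mice and of 2 biological replicates, so the spread behind each p-value may be partly technical. For control replicates 3 and 4 the scanner data carry Ah-Cre in their names too, but the labels were followed. No source used here gives the age or the H2 haplotype of the mice.

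A class I molecule is a heavy chain paired with beta-2 microglobulin and, in most cases, a short peptide cut by the proteasome and carried into the endoplasmic reticulum by the TAP transporter. The classical heavy chains H2-K and H2-D show peptides of the cell's own proteins to CD8 T cells, and nearly all nucleated cells carry them. Non-classical chains are less variable between strains and present restricted sets of ligands or bind receptors of innate-like lymphocytes, many of which lie within the gut epithelium. Class I promoters carry an NF-kB site, an interferon-stimulated response element read by interferon regulatory factors such as IRF1 and IRF2, and an SXY module through which NLRC5 acts. IRF2 competes with activating members of its family at such elements, and comparing class I genes with and without Irf2 asks whether its loss shifts these genes in the stem cells.

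The promoter windows below are shown because IRF2 reads sequence of this kind and because the members share it. They are the 250 bases upstream of the RefSeq start on assembly GRCm38.p6, written 5′ to 3′ on the gene's strand. Capitals mark matches, on either strand, to the interferon regulatory factor core AANNGAAA and its longer form GAANNGAAA, to GGGNNTTCC (NF-kB type) and to CCAATCA (Y box type).
H2-K1, chr17:34000348-34000597 (minus strand): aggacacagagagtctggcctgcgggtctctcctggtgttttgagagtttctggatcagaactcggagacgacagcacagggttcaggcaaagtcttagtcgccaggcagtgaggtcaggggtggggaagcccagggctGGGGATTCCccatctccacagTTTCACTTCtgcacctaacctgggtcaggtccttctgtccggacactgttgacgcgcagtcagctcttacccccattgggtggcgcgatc
H2-D1, chr17:35262844-35263093 (plus strand): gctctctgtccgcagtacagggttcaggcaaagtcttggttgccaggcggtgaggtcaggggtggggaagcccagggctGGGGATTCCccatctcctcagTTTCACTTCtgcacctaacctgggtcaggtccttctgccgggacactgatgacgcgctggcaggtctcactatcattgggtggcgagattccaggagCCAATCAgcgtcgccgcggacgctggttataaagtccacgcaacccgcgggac
H2-Q4, chr17:35379367-35379616 (plus strand): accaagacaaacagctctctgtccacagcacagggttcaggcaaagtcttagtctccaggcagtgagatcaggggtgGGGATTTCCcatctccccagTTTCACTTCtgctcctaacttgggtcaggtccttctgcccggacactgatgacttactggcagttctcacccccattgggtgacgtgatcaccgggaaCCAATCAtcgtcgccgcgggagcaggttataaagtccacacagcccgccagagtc
H2-Q7, chr17:35438905-35439154 (plus strand): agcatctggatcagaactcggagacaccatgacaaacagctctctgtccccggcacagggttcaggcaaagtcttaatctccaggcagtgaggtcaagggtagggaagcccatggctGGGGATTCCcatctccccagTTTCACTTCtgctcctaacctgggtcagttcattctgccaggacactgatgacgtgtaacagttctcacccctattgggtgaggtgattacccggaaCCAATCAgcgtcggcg
H2-T23, chr17:36032702-36032951 (minus strand): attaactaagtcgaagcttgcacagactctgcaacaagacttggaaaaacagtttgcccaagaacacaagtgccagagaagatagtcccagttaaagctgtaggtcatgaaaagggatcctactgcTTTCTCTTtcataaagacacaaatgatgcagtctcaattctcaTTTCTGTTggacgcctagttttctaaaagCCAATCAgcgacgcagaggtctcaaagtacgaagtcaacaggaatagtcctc
H2-M3, chr17:37269984-37270233 (plus strand): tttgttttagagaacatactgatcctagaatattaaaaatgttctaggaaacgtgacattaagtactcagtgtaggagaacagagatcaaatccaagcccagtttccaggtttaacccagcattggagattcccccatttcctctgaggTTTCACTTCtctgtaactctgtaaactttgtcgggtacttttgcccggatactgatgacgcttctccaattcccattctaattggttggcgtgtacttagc
A RefSeq window was found for 8 of the 9 genes, all but H2-T10, and the first of 2 windows is shown for H2-K1. The core AANNGAAA was present in 8 of 8 windows, against 21.3% of 32851 windows of the same length. Its longer form GAANNGAAA, which overlaps it, was present in those of H2-K1, H2-D1, H2-Q4, H2-Q6, H2-Q7 and H2-M3, against 6.31%. The letters matched were GAAGTGAAA in each of these 6, on the opposite strand and so printed as TTTCACTTC, beginning between -153 bases from the start in H2-Q4 and -90 in H2-K1. H2-T22 and H2-T23 held the core alone, H2-T23 in 2 places. GGGNNTTCC was present in the windows of H2-K1, H2-D1, H2-Q4, H2-Q6 and H2-Q7, against 4.98%, and was not found in those of H2-T22, H2-T23 and H2-M3. CCAATCA was present in 6 windows, against 7.23%, and TGACG, the core letters of a CRE-type site, in 6, against 17.8%. A match is a description of letters in the window and not a measured binding site. The motifs were settled after matches in the windows had been seen, and the genes are close copies of one another. The shares over all windows are therefore given for reference and are no test.

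Irf2 was not lower on the arrays labelled Irf2AhcKO. Levels here are log2 signals minus the 75th percentile of the same array. Irf2 lay between 0.37 and 0.99 on the control arrays and between 0.70 and 1.12 on the Irf2AhcKO arrays. The difference was 0.27 (SE 0.12, adjusted p = 0.429 by limma with Benjamini-Hochberg adjustment). No source used here says where the probe lies relative to the floxed part, so it does not check the labels.

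None of the 7 heavy chain genes passed the test between the groups. The threshold was an adjusted p of 0.05 over all 25404 features, by limma with slide as a term, and 0.0984% of all features passed it, 0.0551% higher and 0.0433% lower in the Irf2AhcKO group. By unadjusted p, 2 of 7 (H2-T10 and H2-Q4) were below 0.05, against 11.7% of all features. Differences are given as Irf2AhcKO minus Control on the log2 scale, with 95% intervals that hold for a single gene and are not adjusted for the number tested. They were positive for 3 genes and negative for 4, with a median of -0.02, beside -0.00 over all features, of which 49.5% were positive. The median size of the difference, sign left aside, was 0.14 in the heavy chains and 0.13 over all features. The median SE was 0.09 in the heavy chains and 0.13 over all features. The classical pair had a median of -0.08 and the 5 non-classical genes a median of 0.03. Levels of different genes come from different probes and are not ranked here.

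H2-K1 encodes the H2-K heavy chain, a classical presenter to CD8 T cells. Its log2 signal was 5.38, 5.16, 5.17 and 5.13 on the control arrays and 5.07, 5.20, 4.99 and 5.00 on the Irf2AhcKO arrays. Control replicate 1 was the highest array and Irf2AhcKO replicate 2 the second, and the groups overlapped. The means were 5.21 ± 0.11 and 5.07 ± 0.10 (SD, n = 4 each), a difference of -0.14 (SE 0.08, adjusted p = 0.499). As a ratio this was 0.906, with an interval from 0.796 to 1.03, so a fall below 0.796-fold lay outside the interval. The probe is spotted 10 times on each array, and the SD between its spots on 1 array was 0.038 to 0.057, smaller than the SD between arrays. A second probe for H2-K1, with 1 spot, gave -0.14 (SE 0.09).

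H2-D1 encodes the H2-D heavy chain, the other classical presenter. H2-D1 measured 4.82, 4.74, 4.67 and 4.41 on the control arrays and 4.69, 4.79, 4.50 and 4.56 on the Irf2AhcKO arrays. The Irf2AhcKO values all lay within the range of the controls. The means were 4.66 ± 0.18 and 4.63 ± 0.13, a difference of -0.02 (SE 0.08, adjusted p = 0.923). The ratio was 0.983, with an interval from 0.857 to 1.13.

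H2-Q4 belongs to the Q region and encodes Qb-1, a non-classical chain of wide expression. The arrays gave 5.67, 5.65, 5.68 and 5.99 on the control arrays and 5.79, 5.88, 6.03 and 6.14 on the Irf2AhcKO arrays. Control replicate 4 stood well above the other controls and inside the range of the Irf2AhcKO group, and the other 3 controls lay below every Irf2AhcKO array. The means were 5.75 ± 0.16 and 5.96 ± 0.15, a difference of 0.21 (SE 0.09, unadjusted p = 0.0493, adjusted p = 0.425). The ratio was 1.16, with an interval from 1.00 to 1.34.

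H2-Q7 encodes a chain of the Qa-2 antigen, which can be anchored in the membrane by a lipid and is bound by receptors on T cells and NK cells. H2-Q7 measured 4.97, 4.79, 4.59 and 4.49 on the control arrays and 4.66, 4.81, 4.48 and 4.47 on the Irf2AhcKO arrays. The arrays of slide 1 (replicates 1 and 2) were above those of slide 2 (replicates 3 and 4) in both groups, and the groups overlapped. The means were 4.71 ± 0.21 and 4.61 ± 0.16, a difference of -0.11 (SE 0.08, adjusted p = 0.608). It was -0.06 without control replicate 1 and -0.07 without Irf2AhcKO replicate 1.

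H2-T10, which RefSeq lists as a transcribed pseudogene, belongs to a pair with H2-T22 whose products are known as ligands of gamma-delta T cell receptors. It was the only measured heavy chain whose groups did not overlap, against 3.85% of all features, 1.74% with the Irf2AhcKO group higher and 2.11% with it lower. Signals were -1.39, -1.27, -1.27 and -1.40 on the control arrays and -0.90, -0.62, -0.94 and -1.02 on the Irf2AhcKO arrays. The lowest Irf2AhcKO array was above the highest control, and replicate 2 was the highest of the Irf2AhcKO arrays. The means were -1.33 ± 0.07 and -0.87 ± 0.17, a difference of 0.46 (SE 0.10, unadjusted p = 0.00215, adjusted p = 0.195). The ratio was 1.38, with an interval from 1.17 to 1.62. Since the adjusted p did not pass the threshold, the difference is given as a value and not as a change.

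H2-T23 encodes Qa-1, which presents leader peptides of other class I chains to NKG2 receptors and so reports on their supply. H2-T23 measured 2.52, 2.37, 2.69 and 2.46 on the control arrays and 2.38, 2.71, 2.58 and 2.51 on the Irf2AhcKO arrays. The groups covered nearly the same range. The means were 2.51 ± 0.14 and 2.54 ± 0.14, a difference of 0.03 (SE 0.11, adjusted p = 0.918) with an interval from -0.22 to 0.28.

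H2-M3 encodes the chain that presents N-formylated peptides, such as those of bacteria, to CD8 T cells. The arrays gave -0.13, -0.43, -1.36 and -0.69 on the control arrays and -1.26, -0.24, -1.34 and -1.38 on the Irf2AhcKO arrays. Control replicate 3 was low among the controls, and Irf2AhcKO replicate 2 lay about as high as the upper controls while the other 3 Irf2AhcKO arrays lay together near the lowest control. The means were -0.65 ± 0.52 and -1.05 ± 0.55, a difference of -0.40 (SE 0.24, adjusted p = 0.532). The interval, from -0.98 to 0.17, was the widest among the 7 genes. The difference was -0.59 without Irf2AhcKO replicate 2 and -0.18 without Irf2AhcKO replicate 1.

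**Figure D1:**
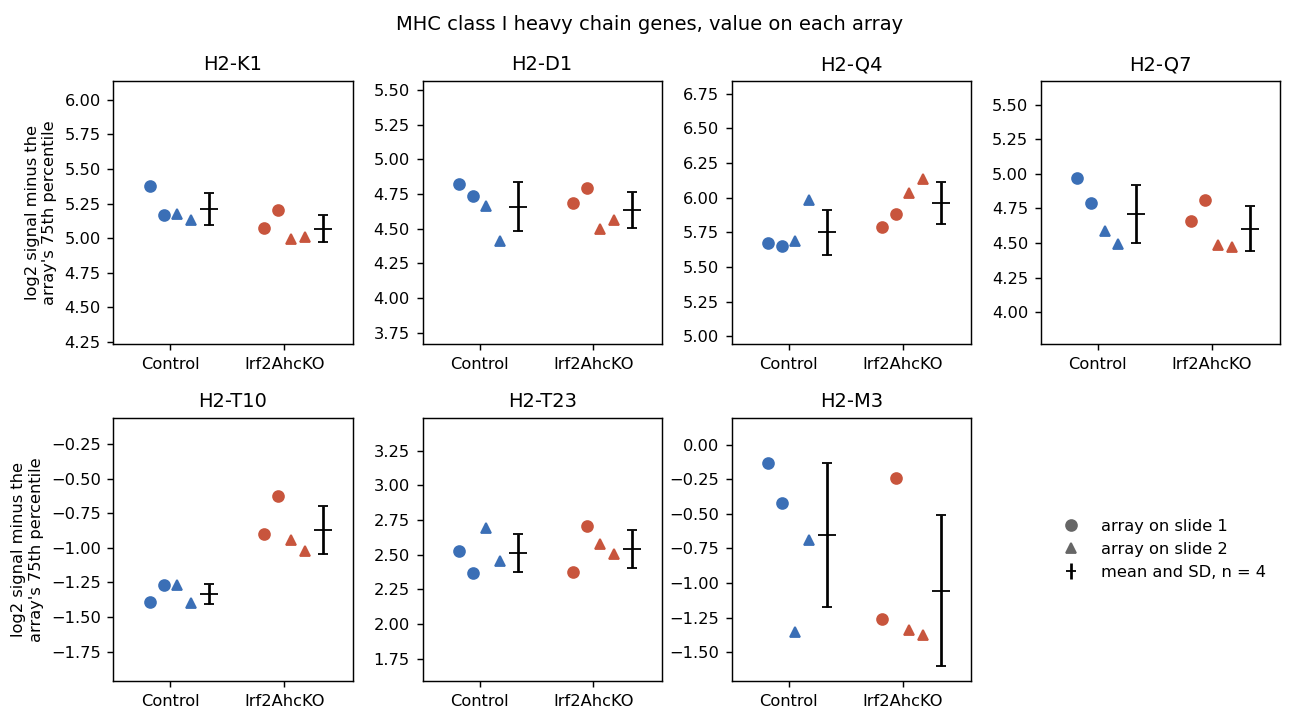
Each panel plots 1 gene's log2 signal minus the array's 75th percentile on the y axis for the 4 Control and 4 Irf2AhcKO arrays, with circles for slide 1, triangles for slide 2 and bars for mean and SD (n = 4). All panels span the same log2 range, so spreads can be compared, and the groups separate only for H2-T10, where the controls lie between -1.40 and -1.27 and the Irf2AhcKO arrays between -1.02 and -0.62.

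The order of arrays was partly shared between the genes. Irf2AhcKO replicate 2 was the highest array of its group for 6 of the 7 genes, all but H2-Q4. Control replicate 1 was the highest control for 4 of 7. With slide means removed, H2-K1 and H2-Q7 followed each other most closely, with r = 0.93 over the 8 arrays, and H2-K1 and H2-D1 had r = 0.50. H2-Q4 ran the other way, with r = -0.56 against H2-K1 and 0.64 against H2-T10. These correlations include the group difference and any RNA or array quality that the 8 arrays share, and are descriptions without a test.

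The heavy chains were mostly lower on slide 2, in 5 of 7 genes, as were 57.4% of all features. The median of slide 2 minus slide 1 over the 7 genes was -0.13, beside -0.08 over all features. Only H2-Q7 passed the test for slide, at -0.30 (SE 0.08, adjusted p = 0.0267), while 35.5% of all features passed it, 23.5% by being lower on slide 2. Slide and the mice on it cannot be told apart. The controls on slide 2 were replicates 3 and 4, whose scanner data carry Ah-Cre in their names. The part of this in the slide 2 differences was not tested. Within slide 1 the group difference was 0.57 for H2-T10 and 0.18 for H2-Q4, and within slide 2 it was 0.35 and 0.25. H2-K1 gave -0.13 and -0.15, H2-M3 -0.47 and -0.33, H2-Q7 -0.14 and -0.07, and H2-D1 -0.04 and -0.01, so 6 of the 7 genes had the same sign on both slides, against 62.2% of all features. H2-T23 was the exception, at 0.10 on slide 1 and -0.03 on slide 2. None of the 7 passed the test of a difference in group effect between slides by limma (adjusted p = 0.999 for each, smallest unadjusted p = 0.317 for H2-T10), and 0% of all features did.

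The light chain and the genes that load class I had mostly positive differences, in 10 of the 13 genes measured. Of 14 genes of loading and peptide processing, 13 were measured, 1 rose by the test (Tapbp, against 0.0551% of all features) and none fell. By unadjusted p, 8 of 13 were higher and none was lower, against 5.98% and 5.75% of all features, and 5 had groups that did not overlap in the higher direction, against 1.74% of all features. The median difference was 0.43, with 0.55 on slide 1 and 0.28 on slide 2. The mean over the 13 genes was 2.24 to 2.50 on the control arrays and 2.60 to 2.98 on the Irf2AhcKO arrays.

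Tapbp encodes tapasin, which bridges an empty heavy chain to the TAP transporter. Its log2 signal was 1.56, 1.90, 1.87 and 1.78 on the control arrays and 2.77, 3.04, 2.71 and 2.71 on the Irf2AhcKO arrays, with no overlap. It rose by 1.03 (SE 0.12, adjusted p = 0.0482), and the difference lay between 0.89 and 1.17 under every alternative run. The call was lost under 17 of the 21 alternatives, among them the replicate number as a block (adjusted p = 0.120) and each of the 8 that leave out 1 array (adjusted p = 0.0765 to 0.178). Over all 21 the adjusted p ranged from 0.0033 to 0.590. Psmb8, a catalytic subunit of the immunoproteasome, differed by 1.76 (SE 0.34, adjusted p = 0.162), with controls from 1.61 to 2.78 and Irf2AhcKO arrays from 3.03 to 4.29. Psmb9, a second such subunit, differed by 1.00 (SE 0.23, adjusted p = 0.229). Tapbpl, which encodes the peptide editor TAPBPR, differed by 0.75 (SE 0.17, adjusted p = 0.220).

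B2m encodes beta-2 microglobulin itself and is named for that role. Its log2 signal was 4.85, 4.83, 4.92 and 4.74 on the control arrays and 5.05, 5.00, 5.06 and 5.04 on the Irf2AhcKO arrays. The groups did not overlap, and the difference was 0.20 (SE 0.07, unadjusted p = 0.0250, adjusted p = 0.366). B2m minus each heavy chain within an array was looked at after the values above had been seen. The shift between groups went in both directions. B2m minus H2-K1 was -0.38 ± 0.12 in the controls and -0.03 ± 0.12 in the Irf2AhcKO group, a shift of 0.35. The shift was 0.23 for H2-D1, 0.31 for H2-Q7, 0.17 for H2-T23 and 0.61 for H2-M3, but -0.01 for H2-Q4 and -0.26 for H2-T10. The exact two-sided permutation test within slides gave p = 0.0556, the smallest that its 36 arrangements allow, for H2-K1, H2-D1, H2-Q7 and H2-T10. After adjustment over the 7 pairs this exact test gave 0.0972 for each of these. With 36 arrangements no pair could fall below 0.05, so the test cannot decide on these shifts. Only the shift between groups carries meaning here, since the level of such a difference depends on the probes.

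The same letters were searched in the RefSeq windows of the loading genes. Of 12 with a window, B2m and Calr held AANNGAAA, against 21.3% of all windows. None held GAANNGAAA or GGGNNTTCC, against 6.31% and 4.98%. TGACG was present in 6 of the 12 (B2m, Canx, Pdia3, Psmb9, Psme2 and Tap1) and CCAATCA in 3 (Canx, Psmb9 and Tap1), against 17.8% and 7.23% of all windows. The windows of Tapbp, Erap1, Psmb8, Psmb10 and Psme1 held none of these motifs. With 12 windows these counts are a description and no test, and sequence outside the windows was not searched.

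**Figure D2:**
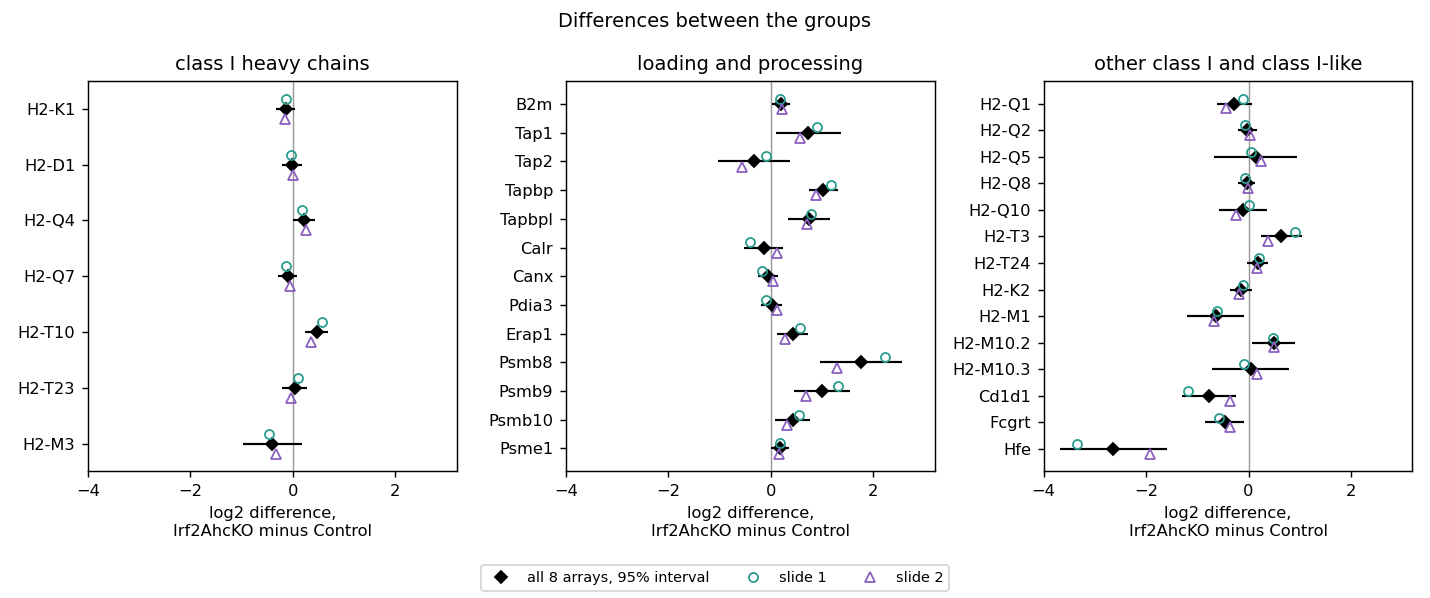
The x axes give the log2 difference, Irf2AhcKO minus Control, with diamonds and 95% intervals from all 8 arrays, circles for slide 1 alone and triangles for slide 2 alone, for the heavy chains, the loading and processing genes and the other class I genes. The heavy chains lie between -0.40 and 0.46 and the loading genes between -0.33 and 1.76; no Irf2AhcKO array measured Hfe above background, so its point is no measured size.

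Genes that control class I transcription did not pass the test. Of 16 such genes, all were measured and 0 were called by limma, against 0.0984% of all features. By unadjusted p, 2 were higher and 1 lower, against 5.98% and 5.75%. The median difference was 0.07, and 13 of 16 differences were positive. Irf8, an interferon regulatory factor of immune cells that the epithelium can also use, differed by 0.60 (adjusted p = 0.202). Rfxap, a subunit of the RFX complex that binds class I and class II promoters, differed by -0.53 (adjusted p = 0.424). Nlrc5, named for its role as the class I transactivator, differed by 0.27 (SE 0.15, adjusted p = 0.505).

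The other class I and class I-like heavy chains gave differences of both signs, 5 positive and 9 negative. Of 30 listed, 23 had a probe and 14 were kept, and of these 0 were called by limma, against 0.0984% of all features. By unadjusted p, 2 were higher and 4 lower, against 5.98% and 5.75% of all features, and the median was -0.07. H2-T3 encodes the thymus leukaemia antigen, a chain of the gut epithelium that binds CD8 alpha homodimers. It lay between 1.08 and 1.61 on the control arrays and between 1.72 and 2.30 on the Irf2AhcKO arrays, a difference of 0.64 (SE 0.17, adjusted p = 0.285) without overlap. Cd1d1, which presents lipids to NKT cells, differed by -0.77 (adjusted p = 0.306), and Fcgrt, the neonatal Fc receptor, by -0.47 (adjusted p = 0.365). Hfe, a class I-like regulator of iron uptake, was well above background on all 4 control arrays and on 0 of the 4 Irf2AhcKO arrays. By a bound from the lowest signal well above background on each array, its signal there lay at least 2.15-fold below the control mean. Hfe was kept through the control arrays alone and is among the 4 counted as lower by unadjusted p. Its limma fit used signals not well above background, so no p is given for the bound. H2-K2, whose sequence is close to that of H2-K1, differed by -0.15 (adjusted p = 0.533).

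Receptors for class I were mostly not well above background. Of 7 lymphocyte receptors, 2 were kept and 0 called, against 0.0984% of all features, with Cd8b1 at 0.49 and Cd160 at -0.07. Of 12 marker genes of T cells and intraepithelial lymphocytes, 7 were kept, and their mean was -0.66 to -0.02 on the control arrays and -0.44 to -0.03 on the Irf2AhcKO arrays. Cd3d, Cd3g and Cd2 were well above background on 1 array or none, Cd8a on 3 of 8, and Cd3e differed by 0.15. Nkg7, of cytotoxic lymphocytes, differed by 0.40 (adjusted p = 0.373). Of the 7 kept T cell and intraepithelial lymphocyte markers 6 were higher and 1 lower, with a median difference of 0.15. The 4 kept B cell markers had a mean of -3.90 to -3.39 on the control arrays and -3.57 to -3.16 on the Irf2AhcKO arrays, and the 7 kept myeloid markers -0.15 to 0.43 and 0.10 to 0.22. Over all 8 arrays these ranges overlapped between the groups, but within each slide both Irf2AhcKO arrays had a higher B cell mean than both controls. Cd79b, a chain of the B cell receptor, was well above background on 2 control and 4 Irf2AhcKO arrays. It differed by 1.33 (adjusted p = 0.189) without overlap, while the median over the 4 kept B cell markers was 0.02. The myeloid marker Fcer1g differed by 0.53 (adjusted p = 0.387). Of the 7 kept myeloid markers 3 were higher and 4 lower, with a median difference of -0.03. The level of the myeloid mean came largely from Itgam, at 6.58 to 7.98 over the 8 arrays, and Csf1r, at 4.17 to 4.83. For Itgam, slide 2 minus slide 1 was -1.27. The part of these markers in the heavy chain values was not tested.

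Markers of the labelled cell type were present in both groups. The mean of 7 kept stem cell markers was 2.88 to 3.22 on the control arrays and 2.75 to 3.14 on the Irf2AhcKO arrays, and Lgr5 differed by -0.29. The mean of 8 enterocyte markers was 0.76 to 2.00 on the control arrays and 0.04 to 0.35 on the Irf2AhcKO arrays, without overlap. The highest control value was replicate 4 and came from 1 gene, Sis, which was at 10.42 there and between -1.74 and -0.79 on the other controls. Without Sis the mean of the other 7 was 0.79 to 1.48 on the control arrays and 0.41 to 0.66 on the Irf2AhcKO arrays, still without overlap. Of the 8 markers 0 were called by limma, against 0.0433% of all features called lower, and 6 were lower by unadjusted p, against 5.75%. Between the same groups, 7 of the 8 enterocyte markers had negative differences. Of the 7 heavy chains 4 differences were negative and 3 positive, and of the 13 loading genes 3 were negative and 10 positive. The part of the enterocyte RNA in those values was not tested. In bulk RNA fewer cells of a type and less RNA per cell cannot be told apart.

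**Figure D3:**
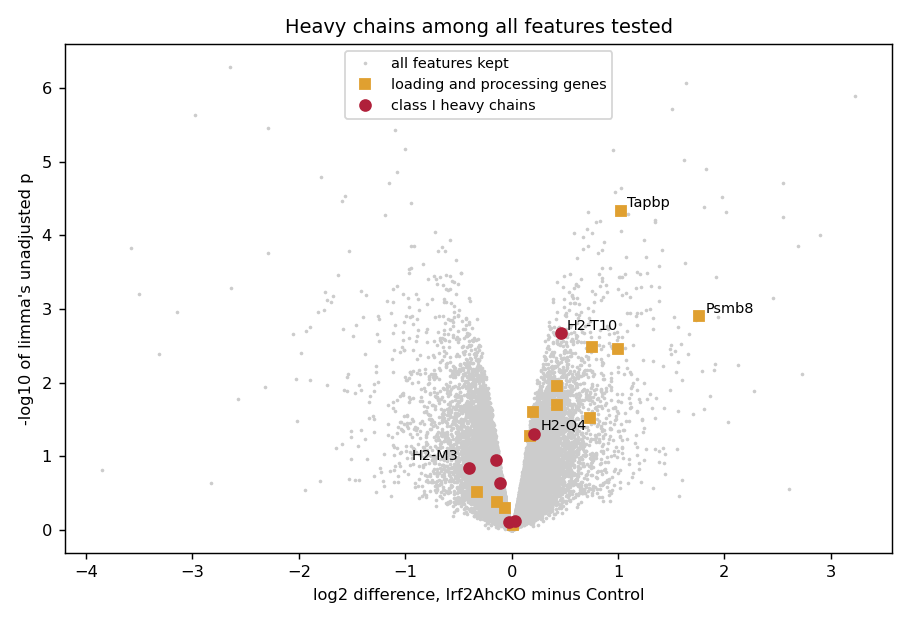
The x axis gives the log2 difference, Irf2AhcKO minus Control, and the y axis -log10 of limma's unadjusted p for all 25404 features (grey), the 13 loading and processing genes (squares) and the 7 heavy chains (circles). H2-T10 lies highest of the heavy chains at a difference of 0.46, and the loading genes Tapbp and Psmb8 lie farther out, at 1.03 and 1.76.

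The stretch of chromosome 17 that holds the heavy chains had more features higher than lower in the Irf2AhcKO group by unadjusted p. Between H2-K1 and H2-M3, 133 features were kept and 0 were called by limma, against 0.0984% of all features. By unadjusted p, 22 were higher and 9 lower, against 5.98% and 5.75% of all features, and the median difference was 0.06. The count takes every kept feature of the stretch, including genes already described. H2-T10 and H2-Q4 are among the 22, so the count is not separate from the values above. Next to H2-K1, H2-K2 differed by -0.15 and Ring1, a Polycomb gene, by -0.21 (adjusted p = 0.416). On either side of H2-T10, the predicted genes Gm11127 and Gm8909 differed by 0.04 and 0.22. H2-T24, beside H2-T23, differed by 0.18.

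The genes whose pattern over the 8 arrays was most like each heavy chain were taken by the smallest root mean square difference, slide means removed. For H2-T10 they were Glipr2, Ffar4, Rcbtb1, Tbk1 and Stat3, at 0.06 to 0.08 log2 units. For H2-K1 they were Stag2, Trak1, Rnaset2a, Tmem30b and H2-K2, at 0.03. The nearest gene was Erf for H2-D1, Stxbp2 for H2-Q4 and Etv6 for H2-T23, at 0.02 to 0.03, and Gm10373 for H2-M3, at 0.14. A flat pattern has many near neighbours by this measure, since most features varied little over the 8 arrays.

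**Figure D4:**
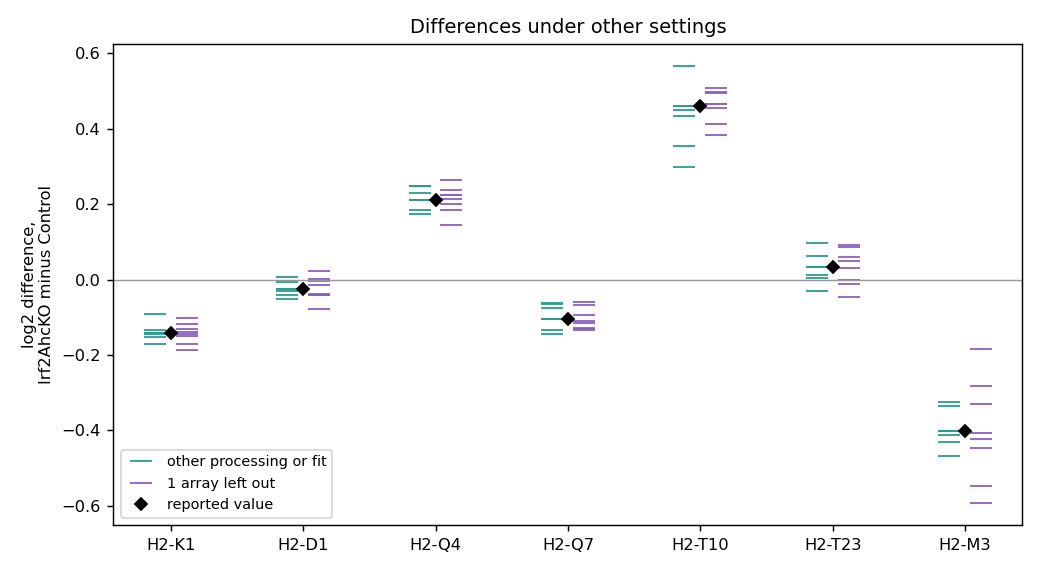
The y axis gives each heavy chain's log2 difference, Irf2AhcKO minus Control, with the diamond for the reported value and dashes for other processing or fits and for 1 array left out. H2-T10 stays between 0.30 and 0.57 and H2-Q4 between 0.14 and 0.26, whereas H2-D1 and H2-T23 lie on both sides of 0. Several dashes for other processing or fits fall on the diamond, since those settings leave the difference unchanged.

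The class I genes are close copies of one another, and probe sequences were not used here. How far the probes for H2-K1 and H2-K2, for H2-Q7 and the other Q genes, or for H2-T10 and H2-T22 read each other's transcripts was not tested. Amplification from little RNA before labelling adds its own spread to each array.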

How the data were processed

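RNA of 4 Control and 4 Irf2AhcKO samples was measured on single-colour Agilent arrays, 1 per sample, after RNeasy extraction, Ovation Pico amplification and Cy3 labelling per the labels' protocols. The deposited scanner files hold each spot's intensity after background subtraction and detrending, made with Agilent Feature Extraction 11.5.1.1 per the file headers. In the authors' deposited series table this intensity is multiplied by 1 factor per array (6.41 to 6.90), linear and uncentred, and no source used here gives the origin of the factor. Between 61.4% and 69.8% of the spots of an array were well above background, and 0 were saturated. The number of arrays limits the precision.

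From the deposited intensity, log2 values minus each array's 75th percentile over spots other than controls were computed, without outlier spots (141 to 214 per array). Probes were named through the RefSeq table of GRCm38.p6 (28331 of 55681 with a symbol). Probes well above background on at least 4 arrays were kept, a gene being its kept probe of highest mean, which left 25404 features. The group comparison used lmFit and eBayes of limma 3.58.1 (R 4.3.3), with slide as a term, two-sided, Benjamini-Hochberg adjusted p below 0.05. The script was tested on simulated data. The normexp alternative used median foreground and background signals, since the files analysed here hold no mean signal column.

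The slide came from the scanner files and coincided with the scan, slide 1 holding replicates 1 and 2 of both groups. Same-numbered arrays deviated together (r across genes 0.46 to 0.53), mostly through the slide. With slide means removed r was 0.05 on slide 1 and 0.21 on slide 2. It is equal for both numbers of a slide by construction, so it cannot show pairing by number. The reported fit held slide as a term and no pairing by number, and the number entered only as a block among the alternatives. Members and lists were chosen with earlier results of these data known, and the promoter motifs were settled after matches in the windows had been seen. All members are named, and up to 4 genes of each other list by unadjusted p, besides B2m, Nlrc5, Irf2, H2-K2, markers and neighbours named for their role or place. Some genes that this rule would name are not reported here. Alternatives covered normalization, filters, probe choice, the slide term, the replicate block and leaving out each array.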

Additional observations from a re-analysis of the deposited data

Results flagged for a closer look

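In 2 of 14 groups of 4 arrays tested among the heavy chains, 1 array stood far from the rest, measured by its gap to the nearest array as a share of the group's range. Chance gives about 1 in 20. For H2-Q4, control replicate 4 at 5.99 stood above the other controls, with a share of 0.893. For H2-M3, Irf2AhcKO replicate 2 at -0.24 stood above the rest of its group, with a share of 0.896.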

How the results depend on the processing

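None of the 7 heavy chains was called under any of 21 alternatives run, their median difference lay between -0.08 and 0.02, and 2 to 4 of the differences were positive. Among values of single heavy chains under an alternative, 140 kept their direction and 7 reversed. Part of the 140 could not have reversed, since several alternatives left each heavy chain's difference unchanged. These were the authors' series table, the changed filters, every probe as a feature, no slide term, the replicate block and the trended and robust prior. H2-D1 reversed to 0.0081 under quantile normalization and ranged from -0.079 to 0.024 when 1 array was left out, reversing without control replicate 3 or Irf2AhcKO replicate 1. H2-T23 reversed to -0.031 on slide 2 alone and ranged from -0.047 to 0.092 when 1 array was left out, reversing without control replicate 2 or 4 or Irf2AhcKO replicate 2. H2-T10 ranged from 0.30 with normexp to 0.57 on slide 1 alone, with a smallest adjusted p of 0.114. The count of all features called, 25, was 133 with normexp, 133 with a trended and robust prior, 7 without the filter on dim probes, 46 with features well above background on all 8 arrays, and 15 with every probe as a feature. With the replicate number as a block it was 0 (3293 at unadjusted p below 0.05), on slide 1 alone 0 (2539) and on slide 2 alone 0 (1337), all by limma. It was 0 to 25 when 1 array was left out: 0 without control replicate 2 or Irf2AhcKO replicate 1 or 2, 1 and 3 without Irf2AhcKO replicates 3 and 4, and 11, 6 and 25 without control replicates 1, 3 and 4. The calls split into 14 higher and 11 lower, and into 9 and 11 with median centring, 3 and 4 without the filter, 9 and 12 with the mean of a gene's probes, and 14 and 5 without the slide term. The count of features whose group effect differed between slides, 0, was 0 to 26 when 1 array was left out: 26 without control replicate 2, 3 without control replicate 4 and 1 without Irf2AhcKO replicate 3. The replicate block changed no call among the heavy chains. The cause of these changes was not tested. All 7 measured heavy chains were well above background on every array. The part of background in their differences was not tested.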
